A study of Mus musculus with 141 samples.

Results

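The *Cyp4* genes described here are 10 members of the cytochrome P450 family 4, *Cyp4a10*, *Cyp4a12a*, *Cyp4a12b*, *Cyp4a14*, *Cyp4a31*, *Cyp4a32*, *Cyp4b1*, *Cyp4f13*, *Cyp4f14* and *Cyp4v3*. They were chosen by their gene symbols from the 24423 genes of each file and not by a measured value, although earlier results of these data were known. Their RNA levels were followed in liver, lung and kidney of 47 Collaborative Cross strains, a panel of recombinant inbred mice. A single male aged 8 to 12 weeks stood for each strain, and this mouse gave all 3 tissues, so each tissue was a group of 47 libraries. There was no treated group. All mice ate the NTP 2000 wafer diet and spent 6 hours a day in clean-air chambers for 2 weeks before collection, under a 12-hour light cycle. With 1 mouse per strain, a difference between strains and a difference between individual mice cannot be told apart, and p-values over strains include both. In bulk tissue, fewer cells of a type and less RNA per cell cannot be told apart either.

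Enzymes of this family place a hydroxyl group on the terminal (omega) carbon of fatty acids and of eicosanoids such as arachidonic acid and leukotrienes. The hydroxylated fatty acid is then oxidised to a dicarboxylic acid by alcohol and aldehyde dehydrogenases and shortened in peroxisomes, a side route to mitochondrial beta-oxidation that gains weight in fasting. *Cyp4a10* and *Cyp4a14* are classical targets of PPARα, the nuclear receptor for fatty acids, whereas *Cyp4a12a* is higher in males and makes a vasoactive product of arachidonic acid in the kidney. *Cyp4b1* handles shorter fatty acids and many foreign compounds, *Cyp4f14* inactivates leukotrienes, and *Cyp4v3* is the mouse counterpart of the gene mutated in the human eye disease Bietti crystalline dystrophy.

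The 3 groups expressed the markers of their organs. The 6 hepatocyte markers, such as *Alb* and *Cps1*, summed to 30187 to 127504 TPM (a level per transcript length and library) in liver. The 8 proximal tubule markers, such as *Slc34a1* and *Lrp2*, summed to 31584 to 168842 TPM in kidney, and the 5 club cell markers, such as *Scgb1a1*, to 15483 to 139608 TPM in lung. Total counts per library ran from 1738046 to 42158454 in liver, 2829104 to 17585682 in lung and 3046695 to 15028553 in kidney. A value of 3 counts or fewer in a library was treated as not resolved, which corresponded to at most 1.73 CPM (counts scaled to the size of a library) in any liver and 0.985 CPM in any kidney before TMM scaling and covers counting error only.

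Several members are near copies of each other, which limits how far 50-base reads can separate them. On NCBIM37 with the GENCODE vM1 models, the *Cyp4a* members and *Cyp4b1* lie in one cluster on chromosome 4 (*Cyp4a12a* at chr4:114971651-115005420, *Cyp4a12b* at chr4:115084229-115111639, *Cyp4a14* at chr4:115158805-115168747, *Cyp4a10* at chr4:115190869-115206254, *Cyp4a31* at chr4:115236254-115251618, *Cyp4a32* at chr4:115273574-115294207 and *Cyp4b1* at chr4:115297303-115320322). *Cyp4a14* and *Cyp4b1* are on the minus strand and the others on the plus strand. *Cyp4v3* lies at chr8:46391155-46418570, and *Cyp4f14* and *Cyp4f13* at chr17:33042016-33054023 and chr17:33061633-33084347, all on the minus strand. The coding sequences of *Cyp4a12a* and *Cyp4a12b* were 98.5% identical, with 23 of 1527 bases different. A stretch of 50 coding bases in exon 6, the length of a read, shows where they can be told apart. Capitals mark the bases that differ between the copies.

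*Cyp4a12a*, chr4:114999237-114999286, plus strand: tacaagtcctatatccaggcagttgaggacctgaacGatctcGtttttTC
*Cyp4a12b*, chr4:115105490-115105539, plus strand: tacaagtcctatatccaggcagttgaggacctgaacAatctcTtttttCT

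These stretches differ at 4 bases. By contrast, 48.9% of all 50-base windows of *Cyp4a12a* transcripts also occurred in *Cyp4a12b*. These windows were counted in reference sequences, whereas the authors aligned reads to a pseudo-genome of each strain. How reads of the copies were divided could not be checked from the counts. *Cyp4a10*, *Cyp4a31* and *Cyp4a32* form the second set of copies, with coding identities of 96.6% (*Cyp4a10* and *Cyp4a31*), 97.2% (*Cyp4a10* and *Cyp4a32*) and 96.0% (*Cyp4a31* and *Cyp4a32*). A stretch in exon 2 has 8 positions at which the 3 copies are not all alike, again in capitals.

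*Cyp4a10*, chr4:115192235-115192284, plus strand: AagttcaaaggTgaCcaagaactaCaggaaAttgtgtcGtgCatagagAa
*Cyp4a31*, chr4:115237615-115237664, plus strand: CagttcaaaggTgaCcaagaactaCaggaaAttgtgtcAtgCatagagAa
*Cyp4a32*, chr4:115274865-115274914, plus strand: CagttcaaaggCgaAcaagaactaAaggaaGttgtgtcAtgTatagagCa

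Of all 50-base windows of the transcripts, 64.4% occurred once in *Cyp4a10*, 68.5% in *Cyp4a31* and 53.2% in *Cyp4a32*, so values of these 3 genes and of the *Cyp4a12* pair are uncertain wherever one copy is far above the other. The remaining members were better separated: 99.8% of the windows of *Cyp4a14*, 97.3% of those of both *Cyp4f13* and *Cyp4f14*, 90.9% of those of *Cyp4v3* and 90.3% of those of *Cyp4b1* occurred once.

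Compared per length, the leading member was *Cyp4v3* in most livers and *Cyp4b1* in every lung and kidney library. The 10 members summed to a median of 831 TPM in liver (175 to 3826 over strains), 952 TPM in lung (266 to 1883) and 4412 TPM in kidney (1821 to 8196). *Cyp4b1* held a median of 90.1% of this sum in lung (76.8 to 93.7%) and 89.8% in kidney (78.3 to 96.4%). In liver the sum was spread over more genes, with a median of 43.9% for *Cyp4v3* (10.9 to 66.5%), 22.3% for *Cyp4a12a* (3.64 to 37.6%), 7.51% for *Cyp4f13* and 6.89% for *Cyp4a10* (0.594 to 35.8%). *Cyp4v3* led in 40 of the 47 livers, *Cyp4a14* in 3, *Cyp4a12a* in 2 and *Cyp4a10* in 2. The share of *Cyp4a14* in liver ran from 0.0146 to 49.8%, around a median of 1.12%.

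**Figure D1:**
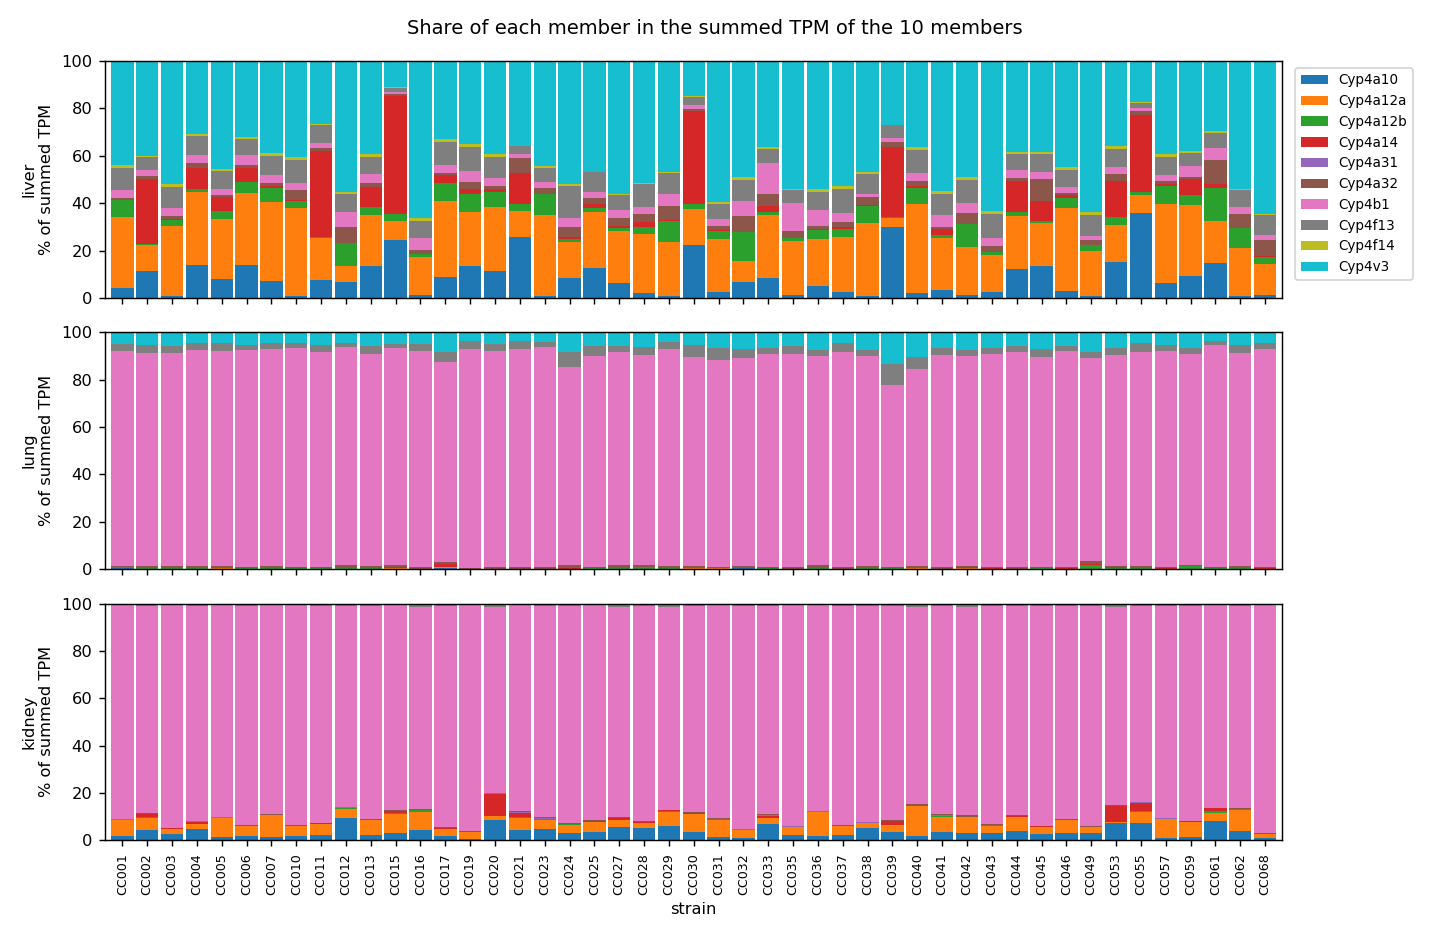
Share of each *Cyp4* member in the summed TPM of the 10 members (percent) in liver, lung and kidney, 47 libraries a tissue. *Cyp4b1* holds a median of 90.1% in lung and 89.8% in kidney, whereas in liver *Cyp4v3* (43.9%) and *Cyp4a12a* (22.3%) lead and *Cyp4a14* reaches from 0.0146 to 49.8%.

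The order of the median TPM in liver was *Cyp4v3* (370), *Cyp4a12a* (184), *Cyp4f13* (67.9), *Cyp4a10* (51.6), *Cyp4a12b* (33.7), *Cyp4b1* (26.4), *Cyp4a32* (18.6), *Cyp4a14* (8.07), *Cyp4f14* (7.76) and *Cyp4a31* (0.08). *Cyp4v3* was above *Cyp4a12a* in 44 of 47 livers and *Cyp4a12a* above *Cyp4f13* in 45. From *Cyp4f13* down to *Cyp4f14* the neighbours were not separated, since each was above the next in only 24 to 29 of 47 livers. In kidney, *Cyp4b1* (3969 TPM) stood above *Cyp4a12a* (204) in all 47 libraries, but *Cyp4a12a* exceeded *Cyp4a10* (128) in only 31. *Cyp4f13* (37.5) and *Cyp4a32* (13.5) followed, and the medians of *Cyp4v3* (6.83), *Cyp4a14* (5.95), *Cyp4a31* (5.31) and *Cyp4a12b* (2.39) lay within the spread of their neighbours. In lung, *Cyp4b1* (854 TPM), *Cyp4v3* (55.6), *Cyp4f13* (28) and *Cyp4a32* (6.64) kept this order in all 47 libraries.

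Tissues were compared with limma-voom on TMM-scaled counts, with strain as a block, over the 12127 genes that exceeded 1 CPM in 30% or more of all libraries. A gene was called at an adjusted p (Benjamini-Hochberg over all genes) of at most 0.1 where its log2 fold change was 1 or more in size. All members but *Cyp4f14* passed the filter, which left 9 tested. *Cyp4a31* passed through its kidney values, being above 1 CPM in 47 kidneys, 2 livers and 0 lungs, and *Cyp4f14* was above 1 CPM in 44 livers, 0 lungs and 0 kidneys. Against lung, 8 of the 9 were called higher in liver, where 23.9% of all genes were, and 1 was called higher in lung, where 31.0% of all genes were. Against kidney, 5 were called higher in liver (15.6% of all genes) and 2 higher in kidney (20.8% of all genes). Between lung and kidney, 1 was called higher in lung (25.5% of all genes) and 7 higher in kidney (20.6% of all genes). These counts include *Cyp4a31*, which was at or under 3 counts in most livers and all lungs and had passed the filter only through kidney. Without it, 7 of 8 were called higher in liver than in lung, 1 of 8 higher in kidney than in liver and 6 of 8 higher in kidney than in lung. The median log2 fold change of the tested members was 4.24 for liver against lung, 1.72 for liver against kidney and -2.79 for lung against kidney, beside -0.06, -0.00 and 0.04 over all genes.

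These values depend on the scaling between tissues. Without TMM, on total counts alone, the median over all genes moved to -1.44 for liver against lung, -0.95 for liver against kidney and 0.46 for lung against kidney. The folds below are relative to TMM, except ratios named as per total counts, and the members whose call ended without it are named.

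**Figure D2:**
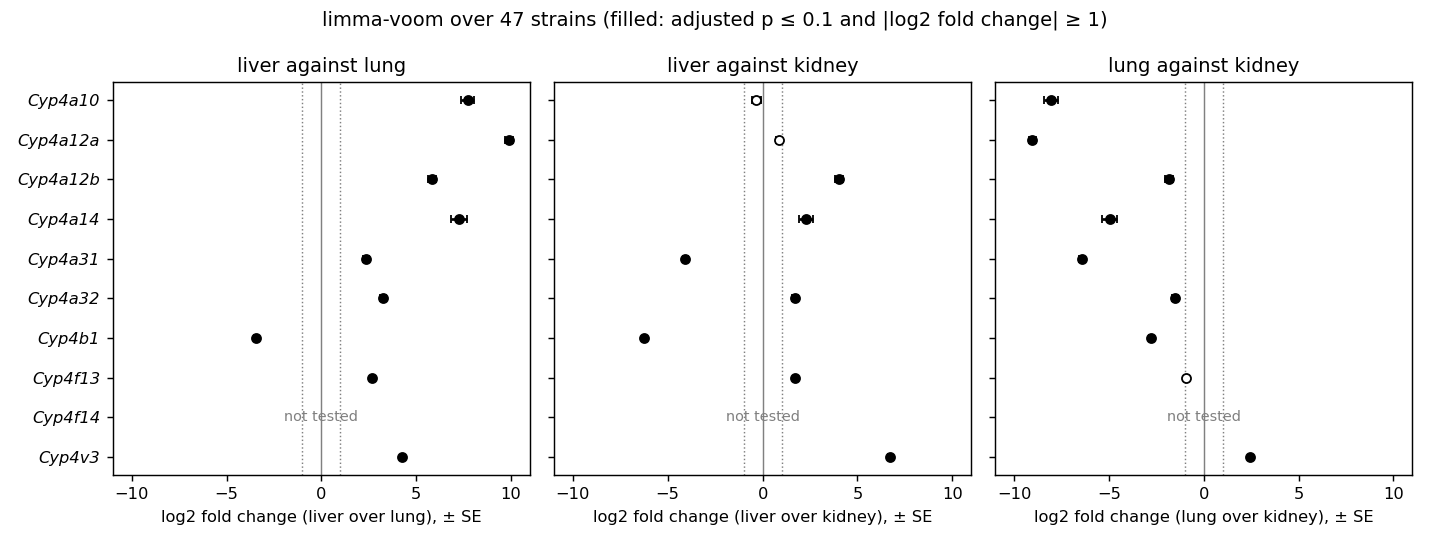
Log2 fold change between tissues (horizontal axis, limma-voom with TMM) of the 9 tested *Cyp4* members in the 3 comparisons, with standard errors. *Cyp4b1* lies on the kidney side against both other tissues and *Cyp4v3* on the liver side against both. *Cyp4a12a* lies at 0.85 for liver against kidney but at -0.06 on total counts without TMM.

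*Cyp4b1*, the P450 of short fatty acids and foreign compounds, was the most abundant member of kidney and lung. It measured 1042 CPM in the lowest kidney, 2375 at the median and 3670 in the highest. In lung it ran from 175 to 539 CPM (median 340), and in liver from 13 to 117 CPM (median 30.2). The 3 ranges did not overlap. It was 6.92-fold higher in kidney than in lung (log2 fold change -2.79 ± 0.08 SE for lung against kidney, limma-voom adjusted p = 2.48e-57), 75.8-fold higher in kidney than in liver (limma-voom adjusted p = 4.03e-88) and 11-fold higher in lung than in liver (limma-voom adjusted p = 6.38e-65), each in 47 of 47 strains.

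The 3 livers with the most *Cyp4b1* by TMM-scaled CPM also had the most RNA of proximal tubule markers. They were CC035 (117 CPM of *Cyp4b1*), CC033 (81.6 CPM) and CC036 (73.8 CPM). The CC033 value came from 48 counts of 5058429, so its rank rests on TMM scaling, which the marker TPM below do not carry. The 8 proximal tubule markers summed to 1712 TPM in the CC035 liver, 1043 TPM in CC036 and 512 TPM in CC033, with 8 of 8 markers above 0, while the median liver had 67.5 TPM. Their part in the liver values of *Cyp4b1* was not tested. With these strains left out, and with CC010, whose lung had 1712 TPM of hepatocyte markers against a lung median of 123 TPM, no tissue call of a member changed.

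*Cyp4v3* had the opposite pattern and was the member most abundant in liver. Its liver values ran from 359 to 1219 CPM with a median of 661, its lung values from 23.6 to 48.6 CPM with a median of 34.4, and its kidney values from 2.97 to 14.4 CPM with a median of 6.01. No ranges overlapped. Liver exceeded kidney 104-fold (log2 fold change 6.70 ± 0.07 SE, limma-voom adjusted p = 1.02e-97) and lung 18.9-fold (4.24 ± 0.06 SE, limma-voom adjusted p = 6.54e-82). Lung exceeded kidney 5.5-fold (limma-voom adjusted p = 1.41e-58), so *Cyp4v3* was the member that was called higher in lung than in kidney. Its transcripts shared 9.1% of their windows with *Klkb1*, a gene of plasma kallikrein.

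*Cyp4f13* was found in all tissues and highest in liver. It ran from 34 to 102 CPM in liver (median 67.2), from 13.7 to 39.2 CPM in kidney (median 19.7) and from 5.54 to 18.2 CPM in lung (median 10.3). Liver was above lung in every strain without overlap of the ranges (6.3-fold, limma-voom adjusted p = 4.96e-69). Liver was also above kidney in 47 of 47 strains (3.3-fold, log2 fold change 1.72 ± 0.05 SE, limma-voom adjusted p = 2.21e-52), although the ranges overlapped and the log2 fold change of 0.79 on total counts was under the threshold. Kidney exceeded lung 1.91-fold in 46 of 47 strains, which was under the fold threshold.

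*Cyp4f14*, which hydroxylates leukotrienes, was above 3 counts in a library in liver alone. Its liver values ran from 0 to 17.7 CPM with a median of 9.98. No lung held more than 1 count and no kidney more than 2. Summed over all libraries of a tissue, liver had 3264 counts, lung 4 and kidney 17. Per total counts this made liver 689 times lung (95% counting interval 269 to 2531) and 154 times kidney (95.9 to 264), intervals that cover counting error only. Scaled by TMM, livers averaged 10.1 ± 4.31 CPM (SD over 47), lungs 0.0039 CPM and kidneys 0.0284 CPM, which gave ratios of 2588 and 355.

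Within liver, *Cyp4f14* had its 3 lowest CPM values in CC039, CC021 and CC025. The CC039 liver had 0 counts of 2237484, which allows up to 1.34 CPM. CC021 had 1 count of 7012963 (0.144 CPM) and CC025 had 6 counts of 14243133 (0.521 CPM). The next strain, CC029, had 3.11 CPM. TMM scaling raised the CPM of that liver, where 164 counts of *Cyp4f13* of 8302859 made 102 CPM. Whether CC029 stands apart from the 3 lowest strains was not tested.

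The PPARα targets *Cyp4a10* and *Cyp4a14* were higher in liver and kidney than in lung, although the median of *Cyp4a14* was low in both organs. *Cyp4a10* ran from 5.52 CPM (CC049) through a median of 62.8 to 1161 CPM (CC015) in liver, and from 20.9 through 92.9 to 293 CPM in kidney. In lung its median was 0.313 CPM and its maximum 2.31 CPM, with 21 of 47 libraries at or under 3 counts. Liver was 210-fold above lung (log2 fold change 7.71 ± 0.35 SE, limma-voom adjusted p = 2.24e-39), and kidney 265-fold (limma-voom adjusted p = 1.10e-40), without overlap. *Cyp4a10* was not called between liver and kidney: the log2 fold change was -0.34 ± 0.23 SE (limma-voom adjusted p = 0.154), with liver higher in 21 strains and kidney in 26. On total counts that difference was -1.55 and passed the threshold, higher in kidney.

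*Cyp4a14* had the widest range of all members. It ran from 0.132 CPM (CC012, 1 count) through a median of 14.9 to 2847 CPM (CC015) in liver. In kidney it ran from 0.338 to 161 CPM (median 4.43), and in lung from 0 to 5.94 CPM (median 0.26). All 3 ranges overlapped. Liver exceeded lung 154-fold in 44 of 47 strains (log2 fold change 7.27 ± 0.42 SE, limma-voom adjusted p = 1.91e-31). Liver exceeded kidney 4.94-fold in 31 of 47 strains (limma-voom adjusted p = 3.26e-08), a call that ended on total counts, where the log2 fold change was 0.73. Kidney exceeded lung 31.3-fold in 46 strains (limma-voom adjusted p = 1.35e-20).

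*Cyp4a12a*, the male-biased arachidonic acid hydroxylase, was abundant in liver and kidney. It ran from 55.4 to 616 CPM in liver (median 293) and from 9.03 to 388 CPM in kidney (median 154). In lung its highest value was 1.1 CPM, and 25 of 47 libraries were at or under 3 counts. Liver was 946-fold above lung (log2 fold change 9.89 ± 0.21 SE, limma-voom adjusted p = 6.60e-67), and kidney 524-fold (limma-voom adjusted p = 2.70e-63), without overlap. Liver against kidney gave a log2 fold change of 0.85 ± 0.12 SE with liver higher in 37 of 47 strains (limma-voom adjusted p = 1.45e-10), under the fold threshold, and the sign turned to -0.06 on total counts and -0.08 on log2(TPM + 1). The median lung level was 0.256% of the liver level in TPM, while that of the hepatocyte markers was 0.145%, and the part of liver RNA in the lung values was not tested.

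Its near copy *Cyp4a12b* was lower, with its highest levels in liver. It ran from 5.97 to 200 CPM in liver (median 44.4), from 0.307 to 35.9 CPM in kidney (median 1.97) and from 0 to 5.26 CPM in lung (median 0.85). Liver was above lung in 47 of 47 strains (56.6-fold, limma-voom adjusted p = 8.04e-47), with no overlap, and above kidney in 45 of 47 (16.2-fold, limma-voom adjusted p = 3.56e-36). Kidney exceeded lung 3.5-fold in 38 strains (limma-voom adjusted p = 2.49e-13), and this call ended on log2(TPM + 1).

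*Cyp4a31* and *Cyp4a32*, whose substrates are less well known, differed in where they were found. *Cyp4a31* ran from 1.08 to 10.3 CPM in kidney (median 4.16), while 43 of 47 livers and all 47 lungs were at or under 3 counts. The 2 livers above 1 CPM, CC015 (2.01 CPM) and CC055 (1.5 CPM), were also the 2 with the most *Cyp4a10*, and the part of shared reads in these values was not tested. Its 2088 kidney counts against 74 in liver and 7 in lung made kidney 35.2 times liver per total counts (95% counting interval 27.9 to 45) and 315 times lung (152 to 783). The ratios of its mean CPM with TMM were 17 and 258. Its call as higher in liver than in lung (log2 fold change 2.35 with TMM) ended on total counts at 0.97. *Cyp4a32* ran from 7.6 to 146 CPM in liver (median 20.4), from 3.11 to 12.6 CPM in kidney (median 7.97) and from 1.07 to 5.83 CPM in lung (median 2.77). Liver was above lung 9.39-fold without overlap (limma-voom adjusted p = 9.27e-36). Liver was above kidney 3.32-fold in 43 of 47 strains (limma-voom adjusted p = 3.90e-18), a call that ended on total counts with a log2 fold change of 0.65. Kidney was above lung 2.83-fold in 47 (limma-voom adjusted p = 9.77e-15), a call that ended on log2(TPM + 1) at -0.91 for lung against kidney.

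**Figure D3:**
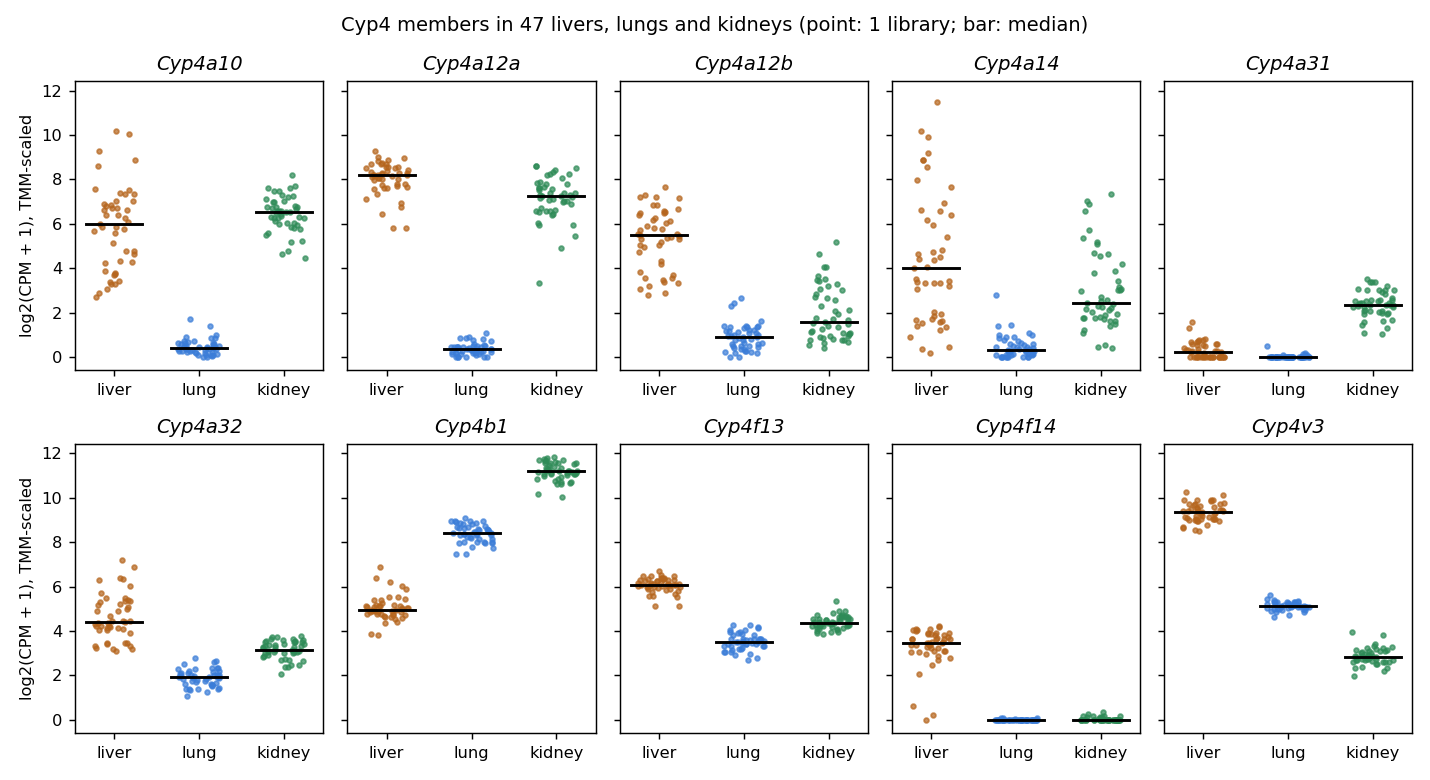
TMM-scaled CPM of the 10 *Cyp4* members in each of the 47 liver, lung and kidney libraries (log scale, horizontal lines at the median). *Cyp4b1* separates the 3 tissues without overlap at medians of 30.2, 340 and 2375 CPM, *Cyp4v3* separates them in the opposite order, and *Cyp4a14* in liver spans 0.132 to 2847 CPM.

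On the TMM scale, the other genes of the omega-oxidation route were also mostly higher in liver. Of 18 tested partners of the list (electron donors, alcohol and aldehyde dehydrogenases and peroxisomal enzymes), 15 were called higher in liver than in lung (23.9% of all genes) and 11 higher in liver than in kidney (15.6% of all genes). None was called higher in lung or in kidney in these pairs by limma-voom, edgeR or DESeq2, with 1 and 2 at an unadjusted p under 0.05. Between lung and kidney, 12 were higher in kidney and 3 in lung (20.6% and 25.5% of all genes). The medians of their log2 fold changes were 3.07, 1.20 and -1.64. *Adh4*, an alcohol dehydrogenase, had a log2 fold change of 10.77 against lung and 9.62 against kidney. *Por*, the reductase that supplies all microsomal P450 enzymes with electrons, was not called in any pair (0.50, 0.12 and -0.38).

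On the TMM scale, most PPARα targets were lower in lung than in the other tissues and divided between liver and kidney. That division is relative to TMM, without which the median over all genes was -0.95 for liver against kidney. Of 31 tested, 23 were called higher in liver and 4 in lung (23.9% and 31.0% of all genes), 11 in liver and 10 in kidney (15.6% and 20.8%), and 1 in lung and 21 in kidney (25.5% and 20.6%), with median log2 fold changes of 2.71, 0.39 and -1.72. Of 16 tested eicosanoid genes, the calls were 8 and 7, 5 and 3, and 6 and 6 in the same order. The epoxygenase *Cyp2j5* was 9.37 higher on the log2 scale in liver than in lung, whereas the cyclooxygenase *Ptgs2* was -6.64. Of the 10 other *Cyp4* genes, 5 were tested. *Cyp4f15* (5.21) and *Cyp4f17* (1.75) were called higher in liver than in lung (23.9% of all genes). *Cyp4f18* (-3.89), *Cyp4f39* (-3.30) and *Cyp4f16* (-1.58) were called higher in lung (31.0% of all genes). Between liver and kidney, 2 were called higher in liver (1 by DESeq2) and 0 in kidney (15.6% and 20.8% of all genes). Between lung and kidney, 4 were called higher in lung and 0 in kidney (25.5% and 20.6% of all genes).

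Members differed widely in how much strains varied within a tissue, described here by the SD of log2(CPM + 1) over 47 strains and its percentile among the genes above 1 TPM (TMM-normalized) in at least 50% of the libraries. In liver, where 9 members passed this filter, *Cyp4a14* had an SD of 2.95, above 99.9% of 9002 genes whose median SD was 0.36. The highest liver was at least 7207-fold above the counting floor of the lowest (at least 3264-fold without CC012 and 2912-fold without CC015), and the upper quartile was 36.1 times the lower. *Cyp4a10* (SD 1.91, percentile 99.5), *Cyp4a12b* (1.36, 98.4), *Cyp4a32* (1.03, 96.7), *Cyp4f14* (0.92, 95.6) and *Cyp4a12a* (0.75, 92.4) also lay high. *Cyp4b1* (0.57, 83.7), *Cyp4v3* (0.41, 62.2) and *Cyp4f13* (0.33, 42.5) were closer to the typical gene, and the highest strain of *Cyp4f13* was only 3-fold above the lowest.

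The *Cyp4a* genes other than *Cyp4a32* were variable in kidney too. *Cyp4a14* had an SD of 1.78 there (percentile 99.8 of 10772 genes, median SD 0.32), with a 475-fold range. *Cyp4a12b* had 1.22 (98.9), *Cyp4a12a* 1.0 (98.2, a 43-fold range that was 13.3-fold without the CC053 kidney), *Cyp4a10* 0.81 (96.6) and *Cyp4a31* 0.59 (91.3). *Cyp4a32* (0.41, percentile 73.9), *Cyp4b1* (0.41, 73.7), *Cyp4v3* (0.37, 66.4) and *Cyp4f13* (0.30, 43.8) were lower. In lung 5 members passed, and the SD of *Cyp4a12b* (0.59, 92.2 of 12389 genes) was above those of *Cyp4b1* (0.40, 74.9), *Cyp4a32* (0.39, 73), *Cyp4f13* (0.38, 71.3) and *Cyp4v3* (0.19, 10.7). *Cyp4a12b* had a median of only 9 counts in lung and was at or under 3 counts in 9 of 47 libraries. The part of counting error in its SD was not tested.

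Of the 5 livers with the most *Cyp4a10*, CC015, CC055 and CC030 were also among the 5 with the most *Cyp4a14*, whereas CC021 and CC039 (618 and 393 CPM of *Cyp4a10*) were not. CC015 was highest for both, with 1161 CPM of *Cyp4a10* and 2847 CPM of *Cyp4a14*, and CC055 second for both, with 1050 and 1150 CPM. The lowest liver for *Cyp4a10*, CC049 (5.52 CPM), was the second lowest for *Cyp4a14* (0.291 CPM). CC012 stood off this line, with 0.132 CPM of *Cyp4a14* beside 50.6 CPM of *Cyp4a10*. Over the 47 livers, r was 0.84 (rank inverse normal values, permutation p = 1e-05, adjusted p = 0.023 over 9001 genes from *Cyp4a10* and 0.045 from *Cyp4a14*) and rho was 0.87 (permutation p = 1e-05), and r was 0.80 without the 2 farthest strains. The smallest p that 100000 permutations can give is 1e-05. Of the windows of *Cyp4a14*, 99.8% had at most 1 match in the genome and none in transcripts of another gene.

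**Figure D4:**
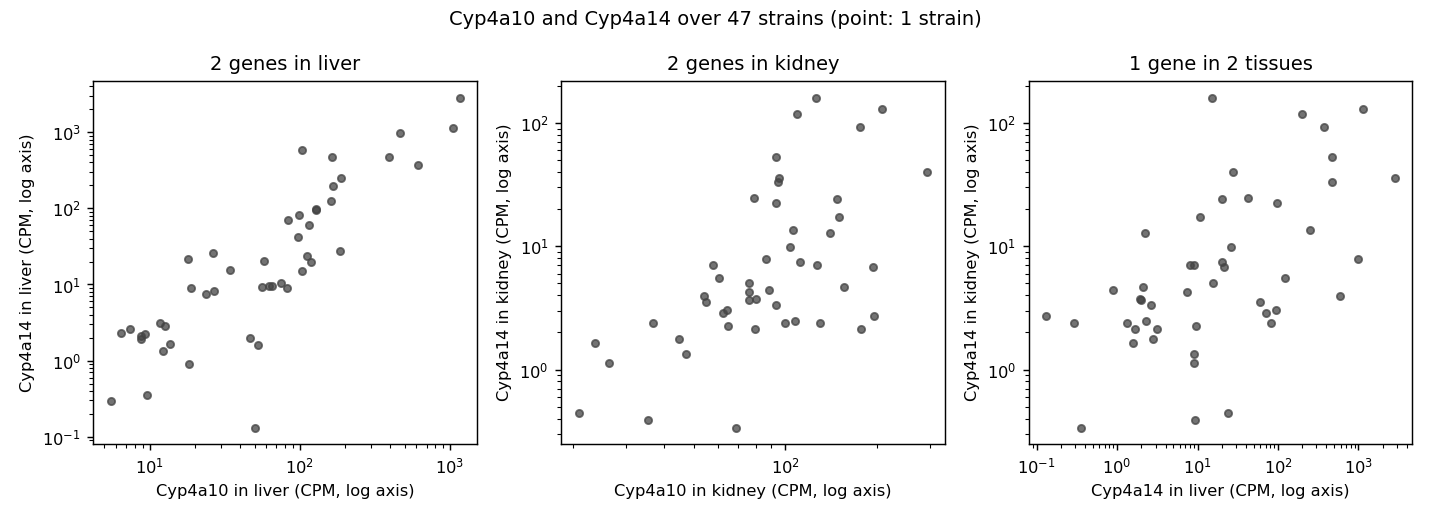
*Cyp4a10* (horizontal axis) against *Cyp4a14* (vertical axis) in CPM on log scales, 1 point per strain, in liver and kidney. The 2 genes rise together in liver (r 0.84) and in kidney (r 0.60), and the CC012 liver lies apart at 50.6 CPM of *Cyp4a10* and 0.132 CPM of *Cyp4a14*.

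In all, 82 pairs of members were correlated within a tissue (36 in liver, 10 in lung and 36 in kidney), with p adjusted over all genes separately for each member. A pair thus had an adjusted p from either side, and it was counted as called where at least one side reached 0.1. This held for 2 pairs in liver, 1 in lung and 5 in kidney, and 22 pairs had an unadjusted p under 0.05. Of all genes, 0 to 0.800% were called with a single member in liver, 0 to 4.56% in lung and 0 to 6.82% in kidney. At an unadjusted p under 0.05 these were 534 to 1166 of 9001 genes in liver, 636 to 2337 of 12388 in lung and 671 to 2006 of 10771 in kidney. Of the 8 called pairs, 4 passed from both sides by r: *Cyp4a10* and *Cyp4a14* in liver, *Cyp4a32* and *Cyp4b1* in lung, and *Cyp4a10* with *Cyp4a12b* and *Cyp4b1* with *Cyp4f13* in kidney. By rho, these 2 kidney pairs missed the threshold from *Cyp4a12b* and from *Cyp4f13* (permutation test, adjusted p = 0.11 each). In liver the second pair was *Cyp4a12a* and *Cyp4f13* (r 0.51, permutation p = 0.00023, adjusted p = 0.071 from *Cyp4f13* but 0.2 from *Cyp4a12a*, rho 0.52, permutation p = 0.00024, r 0.47 without the 2 farthest). The near copies *Cyp4a12a* and *Cyp4a12b* missed the threshold (r 0.52, permutation p = 0.0001, adjusted p = 0.19 from *Cyp4a12a* and 0.23 from *Cyp4a12b*, rho 0.50, permutation p = 0.00039, r 0.51 without the 2 farthest).

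In kidney, *Cyp4a10* again went with *Cyp4a14* (r 0.60, permutation p = 1e-05, adjusted p = 0.022 from *Cyp4a10* but 0.11 from *Cyp4a14*, rho 0.58, permutation p = 2e-05, r 0.56 without the 2 farthest, where it missed the threshold). It also went with *Cyp4a12b* (r 0.64, permutation p = 1e-05, adjusted p = 0.022 and from *Cyp4a12b* 0.054, rho 0.65, permutation p = 1e-05, r 0.66 without the 2 farthest, where it missed the threshold too). Among the genes like *Cyp4a31* was *Cyp4a14* (r 0.58, permutation p = 1e-05, adjusted p = 0.017 from *Cyp4a31* but 0.16 from *Cyp4a14*, rho 0.56, permutation p = 4e-05, r 0.62 without the 2 farthest). *Cyp4a31* and *Cyp4v3* were the pair with a negative relation (r -0.42, permutation p = 0.0031, adjusted p = 0.077 from *Cyp4a31* but 0.42 from *Cyp4v3*, rho -0.41, permutation p = 0.0048), and the call from *Cyp4a31* ended without the 2 farthest strains (r -0.37).

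*Cyp4b1* paired with *Cyp4f13* in kidney (r 0.55, permutation p = 9e-05, adjusted p = 0.015 and from *Cyp4f13* 0.05, rho 0.55, permutation p = 8e-05, r 0.48 without the 2 farthest) and with *Cyp4a32*, its neighbour on chromosome 4, in lung (r 0.57, permutation p = 2e-05, adjusted p = 0.015 and from *Cyp4a32* 0.017, rho 0.62, permutation p = 2e-05, r 0.54 without the 2 farthest). Without strains that had a library under 4000000 counts, the first of these missed the threshold at r 0.53, and with the first principal component removed the second missed it at r 0.53. On TPM without TMM, further pairs passed the threshold, such as *Cyp4b1* and *Cyp4v3* in lung (r 0.70). The promoters of these 3 members, 250 bases before the start in the RefSeq table for GRCm38.p6, are shown because *Cyp4b1* was called with *Cyp4a32* in lung and with *Cyp4f13* in kidney. *Cyp4a32* and *Cyp4f13* were not called with each other (r 0.13 in liver, 0.15 in lung and 0.21 in kidney). Capitals mark matches, on either strand, to TATAAA (the TATA box), to CCAAT (the CCAAT box), to GGGCGG (the core of the GC box), to TTCNNNGAA (a STAT form) or to AGGTCA (the nuclear receptor half-site).

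*Cyp4b1*, chr4:115647722-115647971, minus strand: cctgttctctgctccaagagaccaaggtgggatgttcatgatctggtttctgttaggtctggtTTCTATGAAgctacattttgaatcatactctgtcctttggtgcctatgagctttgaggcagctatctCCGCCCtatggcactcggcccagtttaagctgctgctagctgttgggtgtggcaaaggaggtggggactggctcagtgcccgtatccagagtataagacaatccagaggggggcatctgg
*Cyp4a32*, chr4:115600688-115600937, plus strand: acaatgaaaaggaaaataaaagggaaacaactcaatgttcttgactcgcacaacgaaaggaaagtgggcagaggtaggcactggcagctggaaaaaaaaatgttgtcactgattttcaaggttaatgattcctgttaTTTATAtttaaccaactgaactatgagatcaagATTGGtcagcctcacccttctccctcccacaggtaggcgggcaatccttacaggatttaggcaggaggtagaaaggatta
*Cyp4f13*, chr17:32947362-32947611, minus strand: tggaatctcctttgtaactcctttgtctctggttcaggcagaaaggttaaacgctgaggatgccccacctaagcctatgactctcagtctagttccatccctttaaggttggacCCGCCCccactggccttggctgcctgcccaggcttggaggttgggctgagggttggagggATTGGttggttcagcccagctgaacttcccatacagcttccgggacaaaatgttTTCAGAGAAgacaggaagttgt

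*Cyp4b1* held TTCNNNGAA at 187 to 179 bases before its start and GGGCGG on the opposite strand at 120 to 115. *Cyp4a32* held TATAAA at 113 to 108 and CCAAT at 80 to 76, both on the opposite strand. *Cyp4f13* held TTCNNNGAA at 22 to 14, with CCAAT at 76 to 72 and GGGCGG at 136 to 131 on the opposite strand. Of 32817 promoters of this length, 7.0% held TTCNNNGAA, 32.7% GGGCGG, 33.8% CCAAT, 12.4% TATAAA and 14.0% AGGTCA, which was not in the windows of the 5 members that the table lists. Entries were matched for *Cyp4a32*, *Cyp4b1*, *Cyp4f13*, *Cyp4f14* and *Cyp4v3*, and not for *Cyp4a10*, *Cyp4a12a*, *Cyp4a12b*, *Cyp4a14* and *Cyp4a31*.

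Whether a mouse high for a member in one tissue was high in another was asked for 18 member and tissue pair relations. Of 8 members in liver and kidney, 3 had an adjusted p of at most 0.1 with a positive r, beside 23.0% of all genes. Of 5 members in lung and kidney, 1 did, beside 16.9% of genes. In liver and lung, 0 of 5 did by r or by rho and 1 had an unadjusted p under 0.05, beside 13.0% of genes called.

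*Cyp4a14* had the closest relation between liver and kidney (r 0.57, permutation p = 2e-05, adjusted p = 0.00074 over 8483 genes, rho 0.59, permutation p = 2e-05, r 0.51 without the 2 farthest), at percentile 96.8 of all genes. CC055 was among the highest in both, with 1150 CPM in liver and 129 CPM in kidney. The highest liver, CC015 (2847 CPM), was not among the 5 highest kidneys. The highest kidney, CC020 (161 CPM), was not among the 5 highest livers. *Cyp4f13* had r 0.46 (permutation p = 0.001, adjusted p = 0.011, rho 0.49, permutation p = 0.00071, r 0.45 without the 2 farthest) between liver and kidney. It had r 0.35 (permutation p = 0.016, adjusted p = 0.096, rho 0.38, permutation p = 0.011, r 0.41 without the 2 farthest) between lung and kidney. *Cyp4a12a* had r 0.35 between liver and kidney (permutation p = 0.015, adjusted p = 0.074, rho 0.40, permutation p = 0.0056), which missed the threshold without the 2 farthest strains (r 0.31, adjusted p = 0.16). For *Cyp4a10*, whose pattern within each tissue followed *Cyp4a14*, r between liver and kidney was 0.04 (permutation p = 0.79, adjusted p = 0.88, rho 0.00, permutation p = 1). The difference between these correlations was not tested.

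The balance of *Cyp4a12a* and *Cyp4a12b* was compared within libraries, where scaling has no effect. In liver the ratio of their counts had a median of 6.86 and ran from 0.657 (CC012) to 30.3 (CC004), with *Cyp4a12a* ahead in 45 of 47 strains. In kidney the median was 62.1 and the range 4.41 (CC061) to 618 (CC013, with 3 counts of *Cyp4a12b*), with *Cyp4a12a* ahead in all 47. The ratio was higher in kidney in 45 of 47 strains, by 3.03 ± 2.32 on the log2 scale (SD, n = 47 strains). No relation of the liver ratio to the kidney ratio was detected (1 relation, r 0.04, permutation p = 0.8, rho 0.02, permutation p = 0.87, r 0.02 without the 2 farthest). Over the 34 strains with at least 10 counts of each gene in both tissues, r was 0.21 (permutation p = 0.23) and rho 0.18 (permutation p = 0.29).

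**Figure D5:**
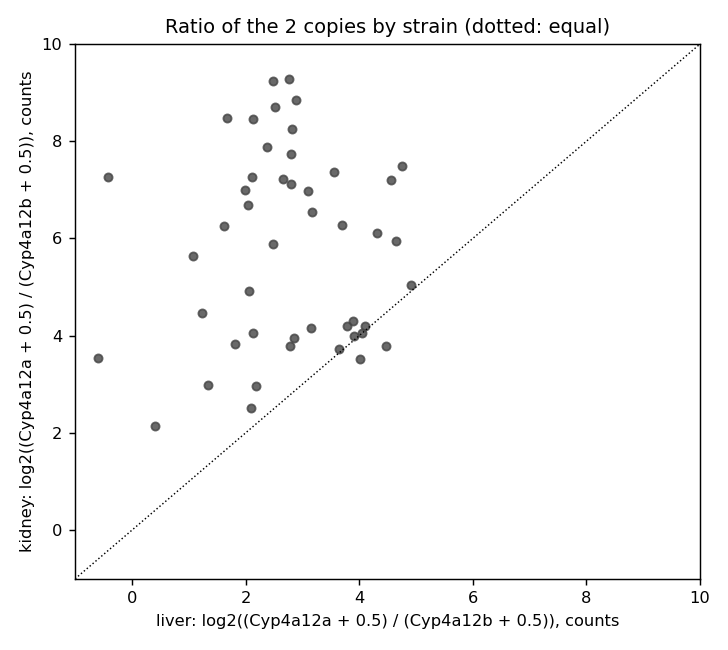
Log2 ratio of *Cyp4a12a* to *Cyp4a12b* counts (0.5 added to each) in liver (horizontal axis) and kidney (vertical axis), 1 point per strain. The kidney ratio is above the liver ratio in 45 of 47 strains and the points show no relation (r 0.04).

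Strain profiles of the PPARα targets *Cyp4a10* and *Cyp4a14* were set beside those of other genes. In liver 0.156% of 9001 genes were called with *Cyp4a10* and 0.0222% with *Cyp4a14*, in either direction. *Acot1*, an acyl-CoA thioesterase, was the PPARα target called with *Cyp4a10* in liver, of 31 tested (r 0.57, permutation p = 2e-05, adjusted p = 0.03, rho 0.51, permutation p = 0.00022, r 0.51 without the 2 farthest), while 0 of the 31 were called by rho, 20 had an unadjusted p under 0.05 and the median rho was 0.28. With *Cyp4a14* in liver, 0 of 31 PPARα targets were called by r or rho, 10 had an unadjusted p under 0.05, 30 had a positive r, and the median rho was 0.22. The targets with the largest rho were *Crat*, the carnitine acetyltransferase (0.53), *Acot1* (0.36) and *Eci1* (0.35). Of 18 omega-oxidation partners, 0 were called with *Cyp4a14* by r or rho and 2 had an unadjusted p under 0.05. In kidney 0.121% of 10771 genes were called with *Cyp4a10*, and 4 of 30 tested PPARα targets were, among them the thioesterases *Acot2* (r 0.62, adjusted p = 0.031, rho 0.64, permutation p = 2e-05 and 1e-05) and *Acot1* (r 0.60, adjusted p = 0.022, rho 0.61, permutation p = 1e-05 and 2e-05). With *Cyp4a14* in kidney 0% of 10771 genes were called by r and 0 by rho, while 793 had an unadjusted p under 0.05. Of the 30 PPARα targets, 0 were called there by r or rho, 10 had an unadjusted p under 0.05, and the median rho was 0.15.

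*Cyp4a12a* had its own nearest genes in liver and in kidney. In liver 0.0111% of genes were called with it, which was *Ldhd*, a lactate dehydrogenase (r 0.62, permutation p = 1e-05, adjusted p = 0.09, rho 0.63, permutation p = 1e-05, r 0.58 without the 2 farthest). Of 10 male-biased liver genes 0 were called by r or rho and 4 had an unadjusted p under 0.05, with the largest rho for *Gstp1* (0.51), *Mup20* (0.50) and *C8b* (0.46). In kidney 1.94% of genes were called. The nearest were the alcohol dehydrogenase *Adh1* (r 0.72, adjusted p = 0.0072, rho 0.69), the steroid reductase *Srd5a2* (r 0.69, adjusted p = 0.0072, rho 0.69) and the organic anion transporter *Slco1a1* (r 0.70, adjusted p = 0.0072, rho 0.67), each with a permutation p = 1e-05 for r and rho. *Kap*, the androgen-regulated protein of the proximal tubule, was 1 of 8 proximal tubule markers called (rho 0.62). *Adh1* and the electron carrier *Cyb5a* (rho 0.51) were 2 of 17 omega-oxidation partners called, and *Slco1a1* was 1 of 8 male-biased genes.

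In lung 1.40% of 12388 genes were called with *Cyp4b1*. The nearest were *Pxdc1* (r 0.77, permutation p = 1e-05, adjusted p = 0.015, rho 0.81, permutation p = 1e-05, r 0.73 without the 2 farthest), *Cyp2b10*, a P450 of foreign compounds (r 0.68, adjusted p = 0.015, rho 0.71, permutation p = 1e-05), and *Selenbp1* (r 0.65, adjusted p = 0.015, rho 0.69, permutation p = 1e-05). *Cyp2b10* and the flavin monooxygenase *Fmo2* (rho 0.54) were 2 of 3 tested genes of the list of female-biased liver genes. Club cell markers were called in 0 of 5 by r or rho with 2 at an unadjusted p under 0.05 (largest rho *Cyp2f2* 0.38 and *Aldh1a7* 0.38), and alveolar type 2 markers in 0 of 5 with 0 at that level. In kidney 6.82% of genes were called with *Cyp4b1*, led by *Msrb1* (r 0.64, permutation p = 1e-05, adjusted p = 0.0063, rho 0.64, permutation p = 1e-05, r 0.58 without the 2 farthest). There 5 of 8 proximal tubule markers were called, 3 of them also by rho, with the largest rho for *Slc34a1* (0.58), *Slc22a6* (0.55) and *Slc5a2* (0.42), and 5 of 17 omega-oxidation partners (*Cyb5a*, rho 0.52). The part of proximal tubule content in the kidney level of *Cyp4b1* was not tested.

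For the remaining members, nearest genes were called by r for *Cyp4f13* in liver, *Cyp4a31* in kidney and *Cyp4a10* in liver. *Mrpl43*, of the mitochondrial ribosome, was nearest to *Cyp4f13* (r 0.64, permutation p = 1e-05, adjusted p = 0.045, rho 0.65, permutation p = 2e-05), followed by *Vars2* (rho 0.61) and *Proz* (rho 0.60). *Mylk*, the myosin light chain kinase, was nearest to *Cyp4a31* (r 0.61, permutation p = 1e-05, adjusted p = 0.017, rho 0.61, permutation p = 2e-05), with *Creb3l1* (rho 0.59) and *Ubap2* (rho 0.58). *Tmtc2* was nearest to *Cyp4a10* after *Cyp4a14* (r 0.64, permutation p = 1e-05, adjusted p = 0.023, rho 0.65, permutation p = 1e-05), with *B930025P03Rik* (rho 0.58) and *Orai3* (rho 0.52). The nearest genes of *Cyp4a12b* (*Mbd1*), *Cyp4a14* (*Eno1*), *Cyp4a32* (*Ddi2*), *Cyp4f14* (*Cmtm6*) and *Cyp4v3* (*Akr1a1*) in liver, with rho from 0.53 to 0.59, missed the threshold by r. By rho, *Mbd1* passed it (rho 0.59, permutation p = 2e-05, adjusted p = 0.09, but 0.14 by r) and the others missed it.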

How the data were processed

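RNA-seq of liver, lung and kidney of 47 strains (141 libraries) was analysed. The authors filtered 50-base single-end reads, aligned them with STAR 2.5.3a to strain pseudo-genomes of Build37 and quantified uniquely aligned reads with RSEM. The expected count deposited by the authors is on the scale of reads (25 values over all files were not whole, and all were rounded), and their deposited TPM divides by transcript length and library. The files' FPKM was not used. Tissue and strain came from the labels. The labels give no batch, so the study's batch term could not be fitted.

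Counts were scaled by TMM (edgeR 4.0.16) and compared with limma-voom (R 4.3.3, limma 3.58.1), strain being a block because 1 mouse gave the 3 tissues. Deviations of same-strain libraries from their tissue means correlated at a median r of 0.177 (liver and lung) to 0.216 (lung and kidney), and over 0.1 in 39 to 45 of 47 strains. Strain correlations used rank inverse normal TMM-normalized TPM (offset 0.375) of genes above 1 in at least 50% of the libraries, with two-sided permutation tests of 100000 resamples and Benjamini-Hochberg adjustment over all genes. The tissue test was tested on simulated data. The genes named are the members, the 3 nearest genes by rho to each member in its highest tissue, and genes of the lists (counts, and the 3 with the largest rho for *Cyp4a14* in liver, *Cyp4a12a* in liver and kidney and *Cyp4b1* in lung). The members and lists were chosen with earlier results of these data known. Alternatives covered DESeq2 1.42.0, edgeR, scaling, TPM scales, filters, depth, the block, strains left out and a removed principal component. Leaving out CC010, CC033, CC035 and CC036 was chosen after seeing the data. The 50-base windows of the members' transcripts (GENCODE vM1) were matched to NCBIM37 and to all protein-coding transcripts, and promoters came from the RefSeq table. Python 3.11.15, numpy 2.4.6, pandas 2.3.3 and scipy 1.17.1 were used. Genotypes and chromatin data were not analysed here.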

Additional observations from a re-analysis of the deposited data

How the results depend on the processing

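The tissue calls of the members were repeated under 12 alternatives. Liver against kidney changed most. With total counts in place of TMM, on log2(TPM + 1) and on log2(TPM + 0.1), 2 members in place of 5 were called higher in liver, and *Cyp4a12a* turned to -0.06, -0.08 and -0.08 (log2 fold change). In these settings the calls of *Cyp4a14*, *Cyp4a32* and *Cyp4f13* ended and *Cyp4a10* was called higher in kidney (-1.55, -1.54 and -1.60). They differ from the others in the scaling of the tissues to each other. For liver against lung, the call of *Cyp4a31* also ended in these settings (0.97, 0.19 and 0.86). For lung against kidney, the calls of *Cyp4a12b* and *Cyp4a32* ended on log2(TPM + 1) (-0.89 and -0.91). Without the replicate block (strain), which pairs the tissues of a mouse, 8 and 1 members were called for liver against lung, 5 and 2 for liver against kidney and 1 and 7 for lung against kidney, the same counts as with it, and the block changed no call.

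In the strain correlations between tissues, 1 member in place of 0 was called for liver and lung without strains that had a library under 4000000 counts (*Cyp4a32*, r 0.43). For lung and kidney, 0 members in place of 1 were called in that setting and on TPM without TMM (*Cyp4f13*, r 0.36 and 0.11). On TPM without TMM, the r of *Cyp4b1* and *Cyp4f13* in liver turned to 0.33 and that of *Cyp4f13* and *Cyp4v3* in kidney to 0.37. The causes were not tested. Over the alternatives, and with p adjusted for the member of a pair named first in the list of members, 382 correlations of 2 members within a tissue kept their direction and their side of the threshold, 18 passed it only in an alternative and 8 only as reported. Over all genes, 1 was called positive with *Cyp4a14* in liver, and 4 were on log2(CPM + 1), 25 on TPM without TMM (2 of them PPARα targets) and 2 without the 2 farthest strains. On TPM, 6 SDs of *Cyp4f13*, *Cyp4a32*, *Cyp4b1* and *Cyp4v3* moved, to between 0.46 and 0.68. Depth limits the values near 3 counts, which include many of *Cyp4a10*, *Cyp4a12a*, *Cyp4a14* and *Cyp4a31* in lung, *Cyp4a31* in liver and *Cyp4f14* outside liver.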

Other observations

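In lung, the levels of 2 lesser members followed genes that the rule for named genes did not select and that were chosen after their values were seen. *Cyp4a12b* went with *Bpifa1*, a secreted protein of airway epithelium (r 0.69, permutation p = 1e-05, adjusted p = 0.041 over 12388 genes, rho 0.65, permutation p = 1e-05, r 0.62 without the 2 farthest strains), and with *Ankef1* (r 0.66, permutation p = 1e-05, adjusted p = 0.041, rho 0.59, permutation p = 3e-05). *Cyp4a32* went with *Crebrf* (r 0.63, permutation p = 2e-05, adjusted p = 0.017, rho 0.68, permutation p = 1e-05) and with *Herc2*, a ubiquitin ligase (r 0.65, permutation p = 1e-05, adjusted p = 0.017, rho 0.65, permutation p = 1e-05). *Cyp4a12b* was at or under 3 counts in 9 of the 47 lungs. In lung 0.517% of genes were called with *Cyp4a12b* by r but 0 by rho, where the adjusted p was 0.12 for *Bpifa1* and 0.17 for *Ankef1* (permutation test). With *Cyp4a32* in lung 4.56% of genes were called by r.

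In kidney, *Cyp4f13* went with *Kcp* by r (r 0.56, permutation p = 2e-05, adjusted p = 0.04) but missed the threshold by rho (rho 0.58, permutation p = 1e-05, adjusted p = 0.11). There 1.18% of 10771 genes were called with *Cyp4f13* by r and 0 by rho.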
